A study of Mus musculus with 23 samples.

Results

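Cross-fostered mouse pups carry a birth dam and a foster dam that can be of the same kind or of different kinds, and the interaction of the birth dam with the foster dam asks whether the liver transcriptome at weaning depends on that match. It was measured here for each gene as the change with nursing by a dam with metabolic syndrome (MetS) in pups born to MetS dams, minus the same change in pups born to control (Ct) dams. All 23 libraries of the series entered it, 11 from matched pups and 12 from mismatched pups. Group names give the birth dam first and the foster dam second: Ct-Ct (n = 6) and MetS-MetS (n = 5) are matched, whereas MetS-Ct (n = 6) and Ct-MetS (n = 6) are mismatched. An estimate above 0 therefore means a level higher in matched pups relative to mismatched pups, given what each dam does on average, and an estimate of 1 on the log2 scale is a doubling of the ratio of the nursing effects. Of 49585 genes in the table, 14466 averaged at least 10 counts per library and were tested.

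Every pup was a C57Bl/6J mouse. MetS dams ate a diet with 45% fat from 3 weeks of age and Ct dams a diet with 10% fat, for 7 or 17 weeks, and litters were set to 5 pups and moved to a foster dam on the day of birth, so that Ct-Ct pups were fostered too. Livers were taken on postnatal day 21, except for MetS-Ct_97, which is labelled day 22. Every library held at least 15615 counts of Xist, which silences an X chromosome in female cells, and at most 1 count of the Y-linked gene Ddx3y, so by these transcripts all 23 pups were female. The sources used here do not tie an animal to a length of the dam's diet or a litter, and pups may share a dam. If they do, p-values would be too small.

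Libraries held 16876460 to 34527932 counts, and libraries of the same group correlated at 0.944 to 0.988 (Pearson) in log counts-per-million (CPM). Hepatocyte genes dominated every library: the 29 tested genes of the hepatocyte list summed to between 143400 and 191200 CPM, and 20 of the 29 had an interaction estimate above 0, with a median of 0.07 (−0.03 with library totals in place of TMM factors). MetS-MetS_110 stood apart, with 204.8 CPM of the skeletal muscle gene Myh8 and 339 CPM of the squamous keratin gene Krt13, which reached at most 1.61 and 0.0547 CPM in the other libraries.

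In the mouse, the suckling period follows the pup's exposure in the womb with milk from the foster dam, and weaning brings the liver from a fat-rich milk diet to its adult programme. Fetal liver also makes red cells, and this activity recedes after birth while blood still passes through the organ, so bulk liver RNA holds transcripts of hepatocytes, macrophages (Kupffer cells), endothelial and stellate cells, and red cell precursors or young red cells in blood. In bulk RNA, fewer cells of a type and less RNA per cell cannot be told apart, and this holds for every gene described here.

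No gene passed the interaction test over all genes. The edgeR quasi-likelihood test called 0 of 14466 genes (0%) at an adjusted p under 0.05, and its smallest adjusted p was 0.424. At an unadjusted p under 0.05 there were 787 genes (5.44%), 393 higher in matched pups (2.72%) and 394 lower (2.72%). That split depended on scaling: 49.9% of these genes were higher with TMM factors and 15.1% with library totals alone, where the median estimate of all genes was −0.10 in place of 0.00. DESeq2's Wald test called 4 genes (0.0277%), all higher in matched pups and all globin genes, and had 800 genes at an unadjusted p under 0.05. The limma-voom test called 0 genes (0%), with a smallest adjusted p of 0.535 and 731 genes at an unadjusted p under 0.05.

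**Figure D1:**
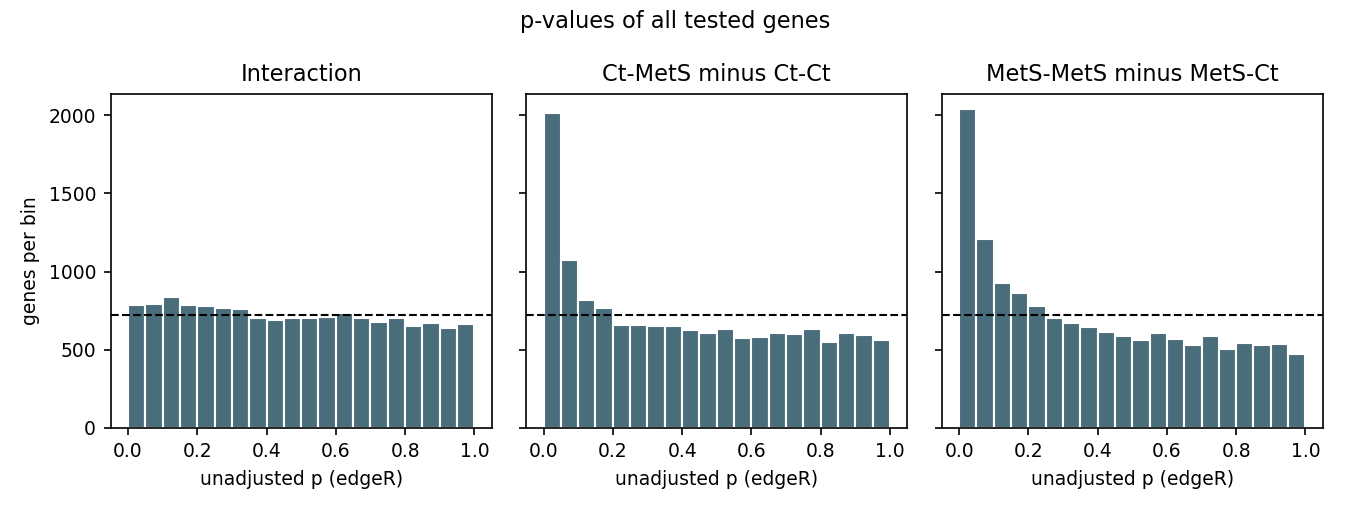
Histograms of unadjusted edgeR p-values of all 14466 tested genes (x axis, bins of width 0.05; y axis, genes per bin) for the interaction and for the nursing effect in pups of each birth dam; the dashed line is an even spread over the 20 bins. The lowest bin holds 787 genes for the interaction, against 2013 for Ct-MetS minus Ct-Ct and 2038 for MetS-MetS minus MetS-Ct.

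The absence of calls was read against the width of the estimates. The median standard error (SE) of the interaction was 0.21 on the log2 scale, against 0.14 for the nursing effect in Ct-born pups and 0.15 in MetS-born pups, because the interaction draws on all 4 group means. The median half-width of the 95% interval was 0.43. For 10850 genes (75%) the whole interval lay between −1 and 1. Interactions of that size or more are thus outside the interval for these genes, whereas smaller ones may lie inside it. Quartiles of the estimate over all genes were −0.17 and 0.14. In log2 CPM over all tested genes, the foster dam took 10.0% of the sum of squares between libraries, the birth dam 8.39% and the interaction 4.11%. The 19 residual degrees of freedom took 77.5%, or 4.08% each, close to the share of the interaction's single degree of freedom.

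The interaction subtracts 2 nursing effects that rest on different libraries, and these mostly pointed the same way where they were called. In Ct-born pups 138 genes changed with nursing by a MetS dam (0.954% of those tested, edgeR adjusted p under 0.05), 85 higher and 53 lower. In MetS-born pups 60 changed (0.415%), 37 higher and 23 lower. The 37 included skeletal muscle genes such as Myh8, Myh1 and Acta1, with estimates of 10.8, 12.29 and 11.6. These were at 204.8, 271.6 and 357.8 CPM in MetS-MetS_110, and at most 1.613, 1.997 and 2.305 CPM in any other library. Of the 138, 123 had the same sign in MetS-born pups, with a median size of 0.63 in Ct-born pups and, signed alike, 0.24 in MetS-born pups. Of the 60, muscle genes included, 46 had the same sign in Ct-born pups, with medians of 1.37 and 0.34. Over all tested genes, 36.7% had opposite signs of the 2 effects, so most genes had the same sign whether called or not. Each list was chosen in the comparison where its values are larger, so the smaller medians in the other comparison were not read as a difference.

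A set of 12 genes was called in both, which is 8.70% of the 138 and 20% of the 60, and all 12 moved the same way. Higher after nursing by a MetS dam in both were the red cell membrane genes Slc4a1, Rhag, Ermap and Kel, the erythroid gene Hemgn, the mitochondrial carrier gene Ucp2, the protease inhibitor gene Serpina3g and Gpc1, which encodes a heparan sulphate proteoglycan. Lower in both were Gckr, which encodes the glucokinase regulatory protein, the matrix gene Smoc2, Zc3h6 and Gm13021. Ucp2 had an interaction estimate of −0.09 ± 0.15 (SE) and a 95% interval from −0.39 to 0.21. Its CPM was 31.2 ± 4.16 (SD, n = 6) in Ct-Ct, 52.0 ± 8.38 in Ct-MetS (n = 6), 36.8 ± 3.19 in MetS-Ct (n = 6) and 57.6 ± 4.44 in MetS-MetS (n = 5). The count of 60 rested on few libraries: it was 5 without MetS-Ct_70, 10 without MetS-MetS_110 and 151 without MetS-MetS_39. The count of 138 was 12 without Ct-MetS_169 and 246 without Ct-Ct_33.

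**Figure D2:**
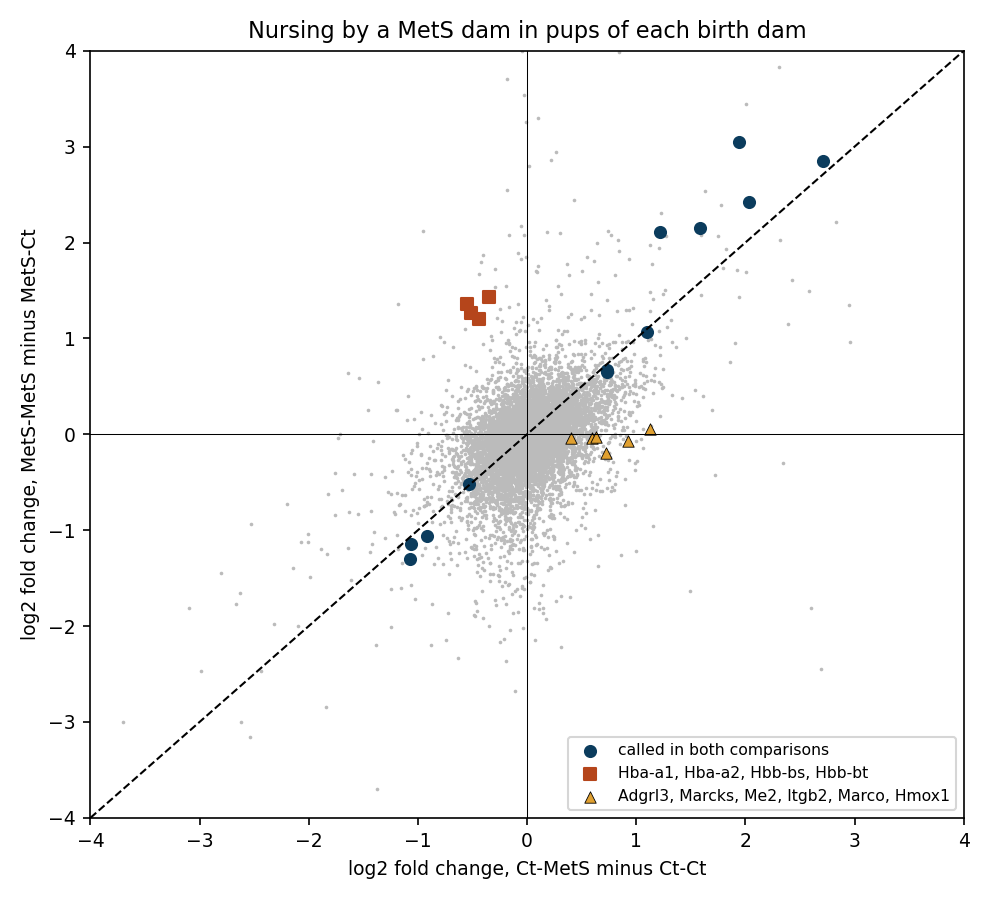
Each point is a tested gene, with the log2 fold change of nursing by a MetS dam in Ct-born pups on the x axis and in MetS-born pups on the y axis; the interaction is the vertical distance from the dashed line of equal effects. Both axes run from −4 to 4 (log2), which leaves out 46 genes. The 12 genes called in both comparisons (circles) have the same sign on both axes, the 4 globin genes (squares) lie above it at 1.20 to 1.43 on the y axis, and 6 genes with estimates below 0 (triangles) lie under it.

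Across all genes the 2 nursing effects had a Pearson correlation of 0.25 and a Spearman correlation of 0.39. This describes genes within 1 fit, which share normalization and the estimate of the spread. Opposite signs of the 2 effects were found in 5307 genes (36.7%) and in 625 of the 787 genes at an unadjusted interaction p under 0.05 (79.4%). The second share follows in part from the choice of genes with large interactions.

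The adult globin genes were the DESeq2 calls. Hba-a1 and Hba-a2 (ENSMUSG00000069919 and ENSMUSG00000069917 in the table) encode the α chain of haemoglobin, Hbb-bs and Hbb-bt (ENSMUSG00000052305 and ENSMUSG00000073940) the β chain, and Alas2 (ENSMUSG00000025270) the enzyme that starts haem synthesis in red cell precursors. All 5 had higher levels in matched than in mismatched pups, with ratios of 1.94 for Hba-a2, 1.85 for Hba-a1, 1.85 for Hbb-bt, 1.77 for Hbb-bs and 1.53 for Alas2. DESeq2 called the 4 globin genes and not Alas2, and edgeR called none of the 5.

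The promoter sequences of these 5 genes are shown because their transcripts had the same order of groups. RefSeq (GRCm38.p6) was matched by symbol for all 5, and the last 150 bases before each annotated start are printed 5′ to 3′ on the gene's strand. Capitals mark motifs found on either strand, with no base in 2 motifs: CACCC, known as a site of the erythroid factor KLF1, then CCAAT, known for the factor NF-Y, and GATA, known for the factor GATA1. The windows are chr11:32283522-32283671 (plus strand) for Hba-a1, chr11:32296342-32296491 (plus) for Hba-a2, chr7:103827929-103828078 (minus) for Hbb-bs, chr7:103813924-103814073 (minus) for Hbb-bt and chrX:150547267-150547416 (plus) for Alas2.
Hba-a1: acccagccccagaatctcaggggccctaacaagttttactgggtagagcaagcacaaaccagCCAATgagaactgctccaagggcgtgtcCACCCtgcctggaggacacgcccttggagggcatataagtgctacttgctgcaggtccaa
Hba-a2: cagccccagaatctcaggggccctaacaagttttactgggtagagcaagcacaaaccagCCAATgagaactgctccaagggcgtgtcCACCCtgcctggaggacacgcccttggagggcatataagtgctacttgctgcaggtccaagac
Hbb-bs: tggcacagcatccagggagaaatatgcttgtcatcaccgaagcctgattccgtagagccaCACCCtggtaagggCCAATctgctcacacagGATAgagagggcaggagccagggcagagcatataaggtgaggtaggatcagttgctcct
Hbb-bt: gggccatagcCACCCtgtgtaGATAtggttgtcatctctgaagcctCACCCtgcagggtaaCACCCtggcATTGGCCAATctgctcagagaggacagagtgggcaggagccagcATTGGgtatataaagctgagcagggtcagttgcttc
Alas2: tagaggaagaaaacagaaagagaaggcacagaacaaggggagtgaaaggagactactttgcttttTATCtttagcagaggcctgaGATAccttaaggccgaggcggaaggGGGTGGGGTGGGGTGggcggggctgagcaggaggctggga
CACCC was present in 5 of the 5 windows, CCAAT in 4 and GATA in 3, and all 3 motifs together in 2, those of Hbb-bs and Hbb-bt. Among 32851 promoter windows of the same length, 37.4% held CACCC, 24.5% CCAAT, 35.7% GATA and 2.69% all 3. The windows of Hba-a1 and Hba-a2 share a run of 147 bases, and the transcripts of the pair are also nearly the same, so how the authors' counting divided reads between them is uncertain. With each pair summed before the fit, the interaction estimate was 1.83 for the α pair and 1.67 for the β pair. The windows of Hbb-bs and Hbb-bt share at most 14 bases in a row.

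Hba-a2 was at 27.7 CPM (lowest), 38.0 (median) and 43.6 (highest) in the 6 MetS-Ct libraries. The 5 MetS-MetS libraries were at 65.9, 71.2, 93.0, 106.5 and 124 CPM. Every MetS-MetS library was thus above every MetS-Ct library, as for 150 of all tested genes (1.04%). Ct-Ct ran from 42.4 to 141 CPM with a median of 73.9, and Ct-MetS from 31.3 to 77.9 with a median of 56.1, so these groups overlapped. The interaction estimate was 1.91 ± 0.37 (SE; 95% interval 1.13 to 2.68), with an adjusted p of 0.424 by edgeR and 0.00258 by DESeq2.

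Hbb-bs, the most abundant of the 4 in CPM, was at 79.8, 98.3 and 145.5 CPM (lowest, median and highest) in MetS-Ct. In MetS-MetS it was at 170.0, 182, 230.0, 265 and 348 CPM. In Ct-Ct its range was 124 to 346 CPM around a median of 194, and in Ct-MetS 86.0 to 211.0 around 158. The lowest group was MetS-Ct, and the groups of Ct-born pups again overlapped. Its interaction estimate was 1.64 ± 0.36, with an adjusted p of 0.424 by edgeR and 0.0159 by DESeq2.

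Hba-a1 and Hbb-bt repeated this order of groups. Hba-a1 averaged 114 ± 52.5 CPM (SD, n = 6) in Ct-Ct, 79.7 ± 23.5 in Ct-MetS (n = 6), 53.6 ± 12.8 in MetS-Ct (n = 6) and 128.5 ± 31.3 in MetS-MetS (n = 5). Hbb-bt averaged 51.6 ± 24.7, 40.5 ± 11.2, 21.4 ± 5.06 and 57.6 ± 13.9 CPM in the same order. Both had an interaction estimate of 1.78, with SEs of 0.38 and 0.37, and both had an adjusted p of 0.00856 by DESeq2. Alas2 averaged 28.7 ± 9.08, 22.7 ± 6.00, 17.1 ± 2.41 and 31.6 ± 7.68 CPM, and its estimate of 1.22 ± 0.28 had an adjusted p of 0.507 by edgeR and 0.0569 by DESeq2. Its 5 MetS-MetS libraries, at 26.03 to 44.9 CPM, also lay above the MetS-Ct range of 14.95 to 21.0.

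**Figure D3:**
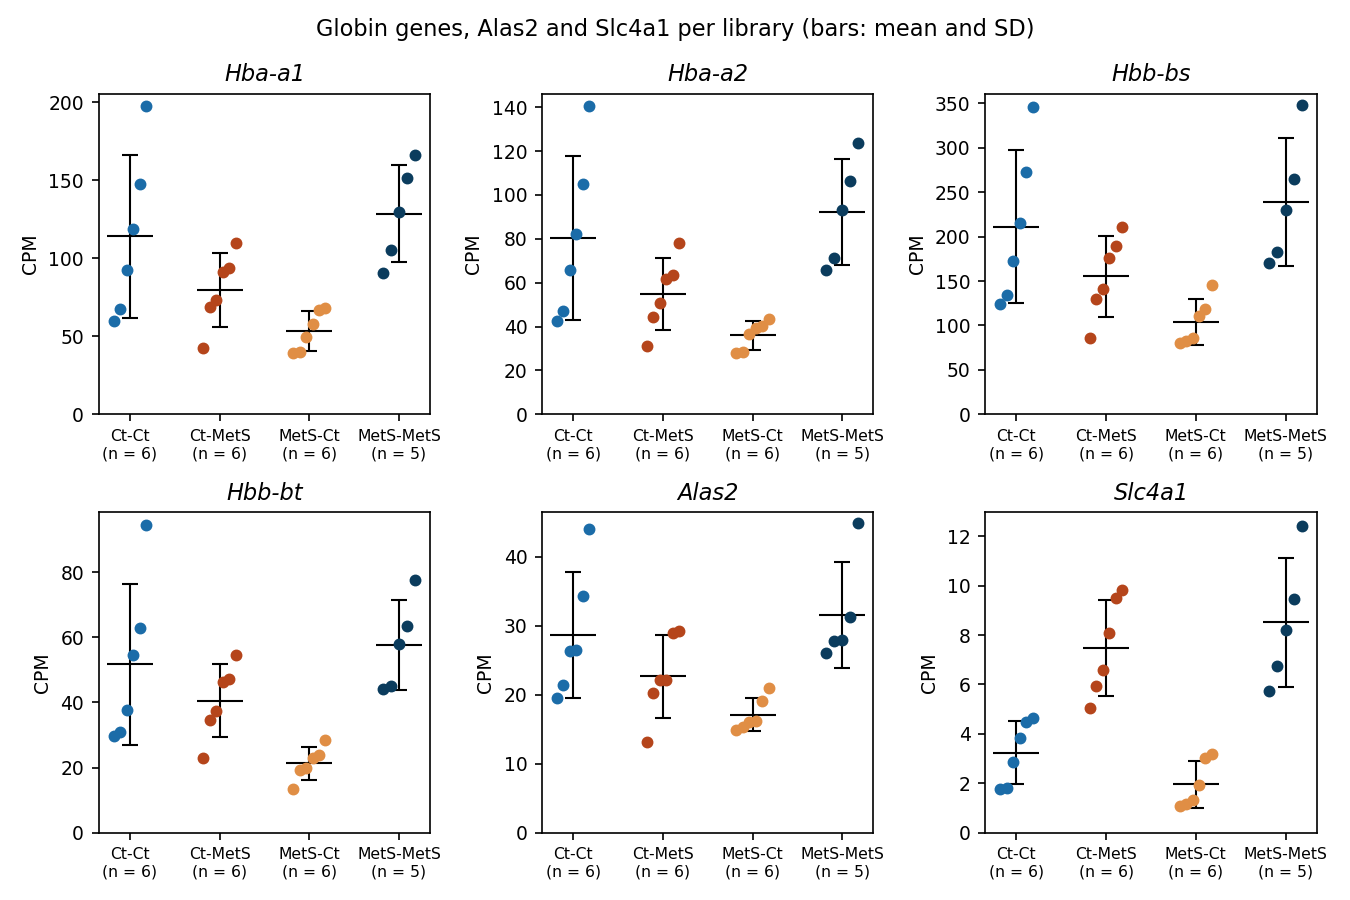
CPM per library (points) with the mean and SD of each group (bars) for Hba-a1, Hba-a2, Hbb-bs, Hbb-bt, Alas2 and Slc4a1; the x axis gives the group (Ct-Ct, Ct-MetS, MetS-Ct and MetS-MetS), and points within a group are spread sideways in order of value. The 4 globin genes and Alas2 are lowest in MetS-Ct, whereas Slc4a1 is higher in both groups nursed by MetS dams.

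Within MetS-born pups, nursing by a MetS dam raised the 4 globin genes by 1.20 to 1.43 on the log2 scale, each with an edgeR adjusted p between 0.0293 and 0.0473. In Ct-born pups the estimates were −0.35 to −0.55, and none passed. These calls lay near the threshold. Over the 23 fits that leave out a single library, edgeR called Hba-a2 and Hbb-bt in 17 each, Hbb-bs in 8 and Hba-a1 in 7. Without MetS-MetS_110, the library with the highest level of each of the 4 among MetS-MetS, the estimates in MetS-born pups were 1.03 to 1.30 and none passed in edgeR (adjusted p 0.0899 to 0.182). In DESeq2's interaction test only Hba-a2 passed without MetS-MetS_110. Hbb-bs was also lost without Ct-Ct_10, Ct-Ct_139, MetS-Ct_85 or MetS-Ct_97, with DESeq2 adjusted p-values of 0.0788, 0.08, 0.0523 and 0.0652. Without both MetS-MetS_110 and Ct-Ct_10 no gene passed, with the lowest globin adjusted p at 0.101. Over the same 23 omissions, DESeq2 called Hba-a2 in 23, Hba-a1 in 22, Hbb-bt in 22 and Hbb-bs in 18.

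The summed level of the 4 globin genes shows where the libraries lay. Its lowest, median and highest values were 160.4, 211 and 278 CPM in MetS-Ct, and 371.5, 510.3 and 715 in MetS-MetS. In Ct-Ct they were 256, 420.1 and 779, the highest being Ct-Ct_10. In Ct-MetS they were 183, 337 and 453. The range of Ct-Ct thus covered that of MetS-MetS.

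The wider lists of red cell genes leaned upward in the interaction. Of 17 genes in the list of globins and haem synthesis, 14 were tested, and all 14 had an interaction estimate above 0, with a median of 0.20 against 0.00 for all tested genes. At an unadjusted p under 0.05 there were 6 of the 14, the 5 genes above and Slc25a37, the mitochondrial iron importer of erythroid cells, against 2.72% of all tested genes in that direction. Of the 24 tested erythroid factor and membrane genes, 16 were above 0 and 8 below, with a median of 0.21. Unadjusted p-values under 0.05 were found for 3 of the 24, all above 0 (2.72% of all tested genes): Trim10, Slc4a1 and Bpgm, the enzyme that makes the haemoglobin regulator 2,3-bisphosphoglycerate. None of either list passed the interaction test in edgeR. With nursing by a MetS dam, 6 of the 24 erythroid factor and membrane genes were called in Ct-born pups and 8 in MetS-born pups (0.954% and 0.415% of all tested genes). The summed level of the list overlapped between all groups, with medians of 415.4 CPM in Ct-Ct, 453.4 in Ct-MetS, 463.8 in MetS-Ct and 491.6 in MetS-MetS.

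Slc4a1, which exchanges chloride and bicarbonate across the red cell membrane, was at 1.76, 3.36 and 4.65 CPM (lowest, median and highest) in Ct-Ct and at 5.05, 7.33 and 9.81 in Ct-MetS. In MetS-Ct it was at 1.09, 1.62 and 3.2 CPM, and in MetS-MetS at 5.74, 6.74, 8.20, 9.45 and 12.4. Groups nursed by MetS dams lay above those nursed by Ct dams of the same birth dam, without overlap. Of all tested genes, 0.912% did so in Ct-born pups and 1.04% in MetS-born pups. Its interaction estimate was 0.89 ± 0.42, with a 95% interval of 0.02 to 1.77. Trim10, a RING finger gene of red cell differentiation, was at 0.34 ± 0.08 CPM (SD) in MetS-Ct and at 1.45 ± 0.48 in MetS-MetS. Its median was 0.71 CPM in Ct-Ct and 1.32 in Ct-MetS. The nursing estimate of Trim10 was 0.77 in Ct-born pups (edgeR adjusted p = 0.226) and 2.08 in MetS-born pups (0.0140). It averaged only 23.1 counts per library, and its interaction estimate was 1.31 ± 0.45. Bpgm had an estimate of 0.48 ± 0.23 and was at 23.5 ± 7.91 CPM in Ct-Ct and at 16.3 to 19.6 on average in the other groups.

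Besides the globins, the genes with the smallest p among those higher in matched pups included 2 P450 genes and Pdhb, and none passed in edgeR or DESeq2. Cyp1a2, the cytochrome P450 that oxidises caffeine and aromatic amines, had an interaction estimate of 1.10 ± 0.27, with an adjusted p of 0.621 by edgeR and 0.100 by DESeq2. It was at 170.0 to 229 CPM in Ct-Ct (median 193), 134 to 208 in Ct-MetS (median 153) and 115 to 204 in MetS-Ct (median 178). The 5 MetS-MetS libraries were at 191, 197, 279.7, 327 and 467 CPM. The spread of MetS-MetS was the widest, and its lower libraries overlapped the other groups. Without MetS-MetS_109, the highest, the estimate was 0.87.

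Cyp2d9, a P450 of steroid hydroxylation that is biased to males in adult mouse liver, though these pups were female by their transcripts, had an estimate of 1.10 ± 0.28. It averaged 229 ± 31.98 CPM in Ct-Ct, 150.4 ± 40.9 in Ct-MetS, 144.8 ± 37.2 in MetS-Ct and 204 ± 55.8 in MetS-MetS (SD, n = 6, 6, 6 and 5). Among the 28 tested drug-metabolising P450 genes, 23 were above 0 and 5 below, with a median of 0.34. Unadjusted p-values under 0.05 were found for 5 of the 28, all above 0 (2.72% of all tested genes in that direction): Cyp1a2, Cyp2d9, Cyp2d10, Cyp2a5 and Cyp2c50. Cyp2a5, which oxidises coumarin and nicotine, varied widely within groups, from 21.9 to 84.8 CPM in Ct-MetS and from 69.5 to 425.5 in MetS-MetS, and its estimate was 1.71 ± 0.75. Members of this family resemble each other in sequence, so reads could be divided between them.

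Pdhb, a subunit of pyruvate dehydrogenase that links glycolysis to the citric acid cycle, showed the pattern from the side of Ct-born pups. It was at 187 to 246 CPM in Ct-Ct (median 211) and at 94.6 to 166 in Ct-MetS (median 121), with no overlap, as for 74 of all tested genes in that direction (0.512%). In MetS-Ct it was at 136 to 181 CPM (median 155.5), and the MetS-MetS libraries were at 121, 123, 156, 158 and 162. Nursing by a MetS dam lowered Pdhb by −0.79 ± 0.11 in Ct-born pups (edgeR adjusted p = 0.0035), and the estimate was −0.12 ± 0.12 in MetS-born pups. Its interaction estimate was 0.67 ± 0.16, with an adjusted p of 0.699 by edgeR. Ero1lb, an oxidase of disulphide bond formation in the endoplasmic reticulum, resembled it, with an estimate of 0.79 ± 0.20 and nursing effects of −0.65 ± 0.14 (edgeR adjusted p = 0.0267) and 0.14 ± 0.14.

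Ntng2, which encodes a membrane-anchored netrin, was low in all groups, at 3.96 ± 0.61 CPM in Ct-Ct, 2.88 ± 0.36 in Ct-MetS, 2.66 ± 0.34 in MetS-Ct and 3.50 ± 0.56 in MetS-MetS. Its estimate was 0.86 ± 0.19, with an adjusted p of 0.424 by edgeR and 0.0902 by DESeq2. The lipid transfer protein gene Osbpl8 and the Golgi tethering gene Cog6 had estimates of 0.56 ± 0.16 and 0.43 ± 0.13, both with an adjusted p of 0.892 by edgeR.

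On the other side, the genes with the smallest p among those lower in matched pups included 5 of 12 that rose with a MetS foster dam in Ct-born pups (0.954% of all tested genes were called there, in either direction). The choice of genes by the interaction itself favours such a rise, so nothing was read from this count. Adgrl3, an adhesion receptor gene (latrophilin 3), had an interaction estimate of −0.995 ± 0.22 (95% interval −1.45 to −0.54) and a ratio of matched to mismatched pups of 0.708. It was at 1.92 to 3.11 CPM in Ct-Ct (median 2.37) and at 3.32 to 5.33 in Ct-MetS (median 4.59). In MetS-Ct it was at 2.36 to 4.26 CPM (median 3.23), and the MetS-MetS libraries were at 2.82, 2.97, 3.14, 3.17 and 3.23. The Ct-MetS libraries lay above all Ct-Ct libraries, as for 132 of all tested genes (0.912%). They also lay above all MetS-MetS libraries, a comparison whose share over all genes was not computed. MetS-Ct overlapped each of the other groups, and MetS-MetS overlapped Ct-Ct. Nursing by a MetS dam raised Adgrl3 by 0.93 ± 0.15 in Ct-born pups (edgeR adjusted p = 0.0116), and the estimate was −0.07 ± 0.16 in MetS-born pups. The interaction had an adjusted p of 0.424 by edgeR and 0.0528 by DESeq2.

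Marcks, a substrate of protein kinase C at the cell membrane, Me2, the mitochondrial malic enzyme, and Itgb2, the β2 integrin subunit of leukocytes, had the same order of groups. Marcks averaged 38.1 ± 4.13 CPM in Ct-Ct, 50.4 ± 4.12 in Ct-MetS, 43.3 ± 3.86 in MetS-Ct and 42.3 ± 3.51 in MetS-MetS (SD, n = 6, 6, 6 and 5). Me2 averaged 4.56 ± 0.81, 6.89 ± 0.74, 5.31 ± 0.48 and 5.16 ± 0.58 CPM in that order. Itgb2 averaged 8.78 ± 1.06, 13.6 ± 2.54, 10.3 ± 0.38 and 10.1 ± 2.27 CPM. For each of these 3 genes, every Ct-MetS library was above every Ct-Ct library, and the nursing effect passed in Ct-born pups, with edgeR adjusted p-values of 0.0206, 0.0193 and 0.0201. In MetS-born pups the effects were −0.03 ± 0.08, −0.04 ± 0.12 and −0.03 ± 0.13. The interaction estimates were −0.44 ± 0.12, −0.63 ± 0.17 and −0.67 ± 0.18, each with an adjusted p of 0.892 by edgeR.

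Fads3, of the fatty acid desaturase family, and Ssbp4 differed from Marcks, Me2 and Itgb2 in being lowest in MetS-MetS. Fads3 averaged 3.89 ± 0.47 CPM in Ct-Ct, 4.84 ± 1.36 in Ct-MetS, 4.62 ± 0.60 in MetS-Ct and 3.05 ± 0.66 in MetS-MetS, with an estimate of −0.92 ± 0.25. For both genes all MetS-MetS libraries were below all MetS-Ct libraries, as for 105 of all tested genes (0.726%). The formin gene Fmnl3, the apolipoprotein B receptor gene Apobr, the transcription regulator gene Id3, the protease gene Adamts5, the mannosidase gene Man1c1 and the homeobox gene Lhx2 completed the set, with estimates from −0.51 to −0.77. Of these, Fmnl3, Apobr, Adamts5 and Lhx2 also had their lowest group median CPM in MetS-MetS. Pdgfb, a growth factor gene, was among the larger estimates at −1.08 ± 0.36. It was at 1.56 to 2.58 CPM on average in the 4 groups.

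**Figure D4:**
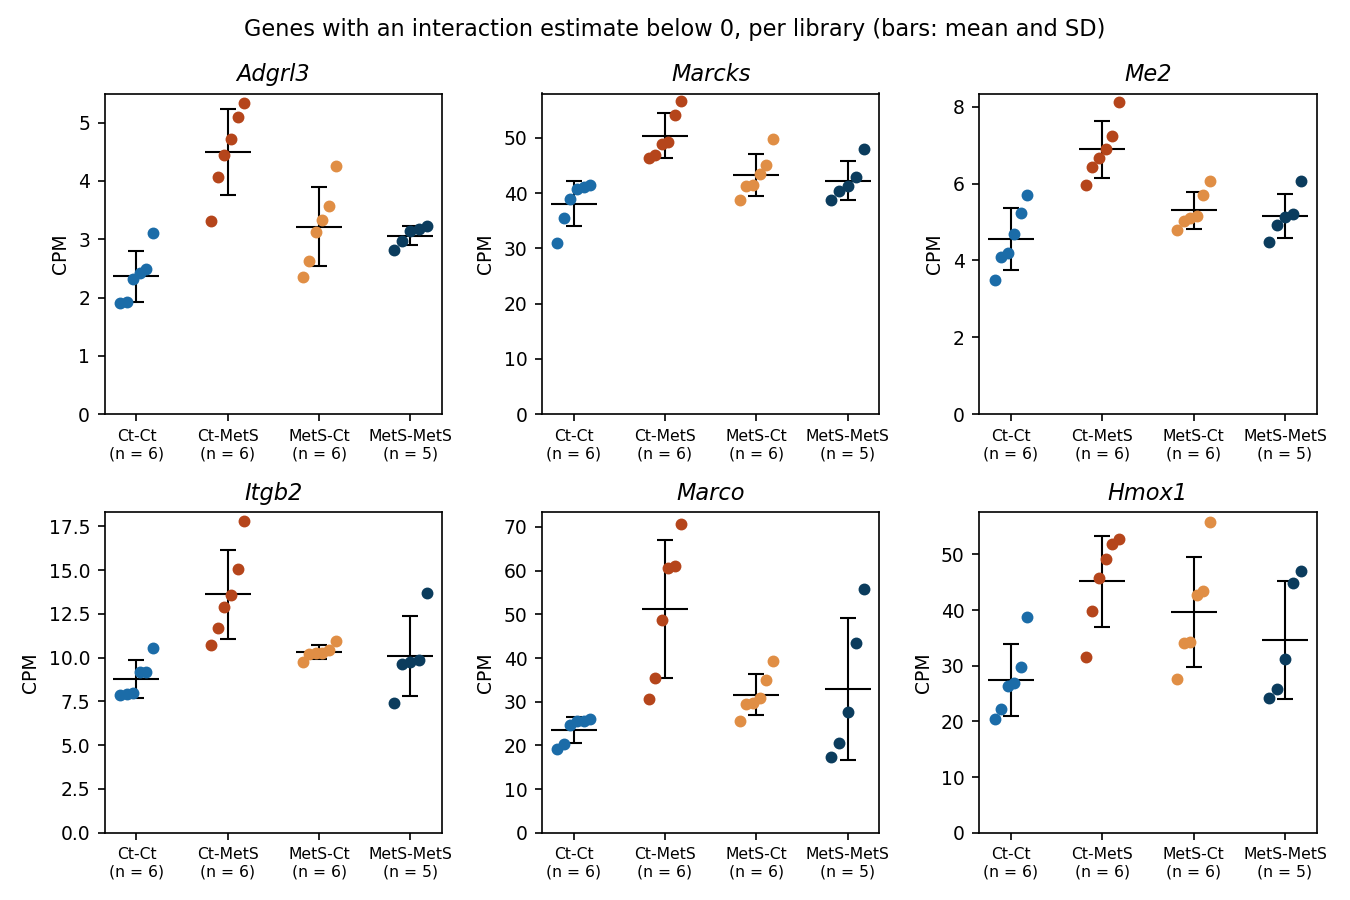
CPM per library (points) with the mean and SD of each group (bars) for Adgrl3, Marcks, Me2, Itgb2, Marco and Hmox1; the x axis gives the group, and points within a group are spread sideways in order of value. Ct-MetS has the highest mean of the 4 groups for all 6 genes, and Ct-Ct the lowest.

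Macrophage genes were among those lower in matched pups, though none passed the interaction test. Of 25 tested Kupffer cell and macrophage markers, 23 had an estimate below 0 and 2 above, with a median of −0.26, and 5 had an unadjusted p under 0.05, all below 0 (2.72% of all tested genes in that direction): Id3, Hmox1, Marco, Csf1r and Laptm5. In Ct-born pups 8 of the 25 were called with nursing by a MetS dam, where 0.954% of all tested genes were. In MetS-born pups 0 were called, where the share of all tested genes was 0.415%, and this count was not read as a difference from Ct-born pups. The summed level of the list was lowest in Ct-Ct, at 1395 to 1895 CPM (median 1624). It was 1899 to 2392 in Ct-MetS (median 2047), 1800.0 to 2085 in MetS-Ct (median 1833) and 1887 to 2415 in MetS-MetS (median 2161). These 3 groups overlapped each other, and the highest Ct-Ct library lay within the ranges of MetS-Ct and MetS-MetS.

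Marco, a scavenger receptor of macrophages, was at 19.1 to 26.1 CPM in Ct-Ct (median 25.1), 30.7 to 70.7 in Ct-MetS (median 54.7) and 25.6 to 39.3 in MetS-Ct (median 30.2). The MetS-MetS libraries were at 17.4, 20.5, 27.7, 43.4 and 55.8 CPM and so spread over the ranges of the other groups. Its interaction estimate was −1.06 ± 0.34, and the nursing effects were 1.12 ± 0.24 in Ct-born pups (edgeR adjusted p = 0.0267) and 0.06 ± 0.25 in MetS-born pups. Hmox1, the inducible haem oxygenase, averaged 27.4 ± 6.48 CPM in Ct-Ct, 45.2 ± 8.16 in Ct-MetS, 39.7 ± 9.90 in MetS-Ct and 34.6 ± 10.7 in MetS-MetS, with an estimate of −0.92 ± 0.28. Csf1r, the receptor for macrophage colony-stimulating factor, had a smaller estimate of −0.36 ± 0.15.

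Extracellular matrix genes and neutrophil genes leaned the same way. Of 34 tested matrix and fibrosis genes, 29 were below 0, with a median of −0.34, and 7 had an unadjusted p under 0.05, all below 0 (2.72% of all tested genes in that direction): Sparc, Pcolce, Tgfbi, Tgfb1, Vim, Col5a1 and Col14a1. Sparc, a collagen-binding matrix protein, was at 301 to 401 CPM in Ct-Ct (median 333) and 396 to 471 in Ct-MetS (median 433). It was at 355 to 417 CPM in MetS-Ct (median 388) and at 354, 361, 409, 421 and 422 in MetS-MetS. Its interaction estimate was −0.33 ± 0.11. Pcolce, the enhancer of procollagen C-proteinase, had an estimate of −0.46 ± 0.18, and Tgfb1 of −0.38 ± 0.15. Of 15 tested stellate cell markers, 13 were below 0, with a median of −0.15. Of 14 tested neutrophil and monocyte markers, 12 were below 0, with a median of −0.45 and 2 at an unadjusted p under 0.05, both below 0 (Csf3r and Prtn3, where 2.72% of all tested genes were). Of the 19 neutrophil and monocyte genes listed, 5 were too low to be tested.

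Over the 36 lists, 22 medians were above 0 and 14 below, no list had a member that passed in edgeR, and 12 had no member at an unadjusted p under 0.05. The medians of the red cell, P450, macrophage, matrix, stellate and neutrophil lists kept their sign under the 34 alternatives run. With library totals they shifted with all genes, that of the macrophage list to −0.36 and that of the P450 list to 0.27. The size of a list's median often rested on single libraries. Leaving out 1 library moved it by over 1.5 times, or changed its sign, in 32 of the 36 lists. The macrophage, matrix, globin and heat shock lists were the exceptions. Among the lists above, the P450 median ran from 0.22 (without Ct-MetS_169) to 0.49 (without Ct-MetS_145), the macrophage median from −0.38 (without MetS-MetS_39) to −0.19 (without MetS-MetS_110) and the neutrophil median from −0.68 (without Ct-Ct_33) to −0.31 (without Ct-MetS_63). The erythroid median ran from 0.15 (without Ct-Ct_33) to 0.33 (without Ct-MetS_145), and the stellate median from −0.20 (without Ct-MetS_24) to −0.06 (without Ct-MetS_65). The cell cycle list had a median of −0.30 with 30 of 34 below 0 and no member at an unadjusted p under 0.05, and its median ran from −0.46 (without MetS-Ct_70) to −0.11 (without Ct-MetS_50). The list of cholesterol synthesis and uptake had a median of −0.42 with 22 of 24 below 0, and its median was 0.06 under limma-voom with sample quality weights and −0.05 without MetS-Ct_85. Of 29 interferon response genes, 23 were below 0, with a median of −0.20 (−0.10 without Ct-MetS_145). Stat2, a transcription factor of interferon signalling, had an estimate of −0.31 ± 0.12 and Oasl1, an interferon-induced gene, of −0.72 ± 0.32.

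**Figure D5:**
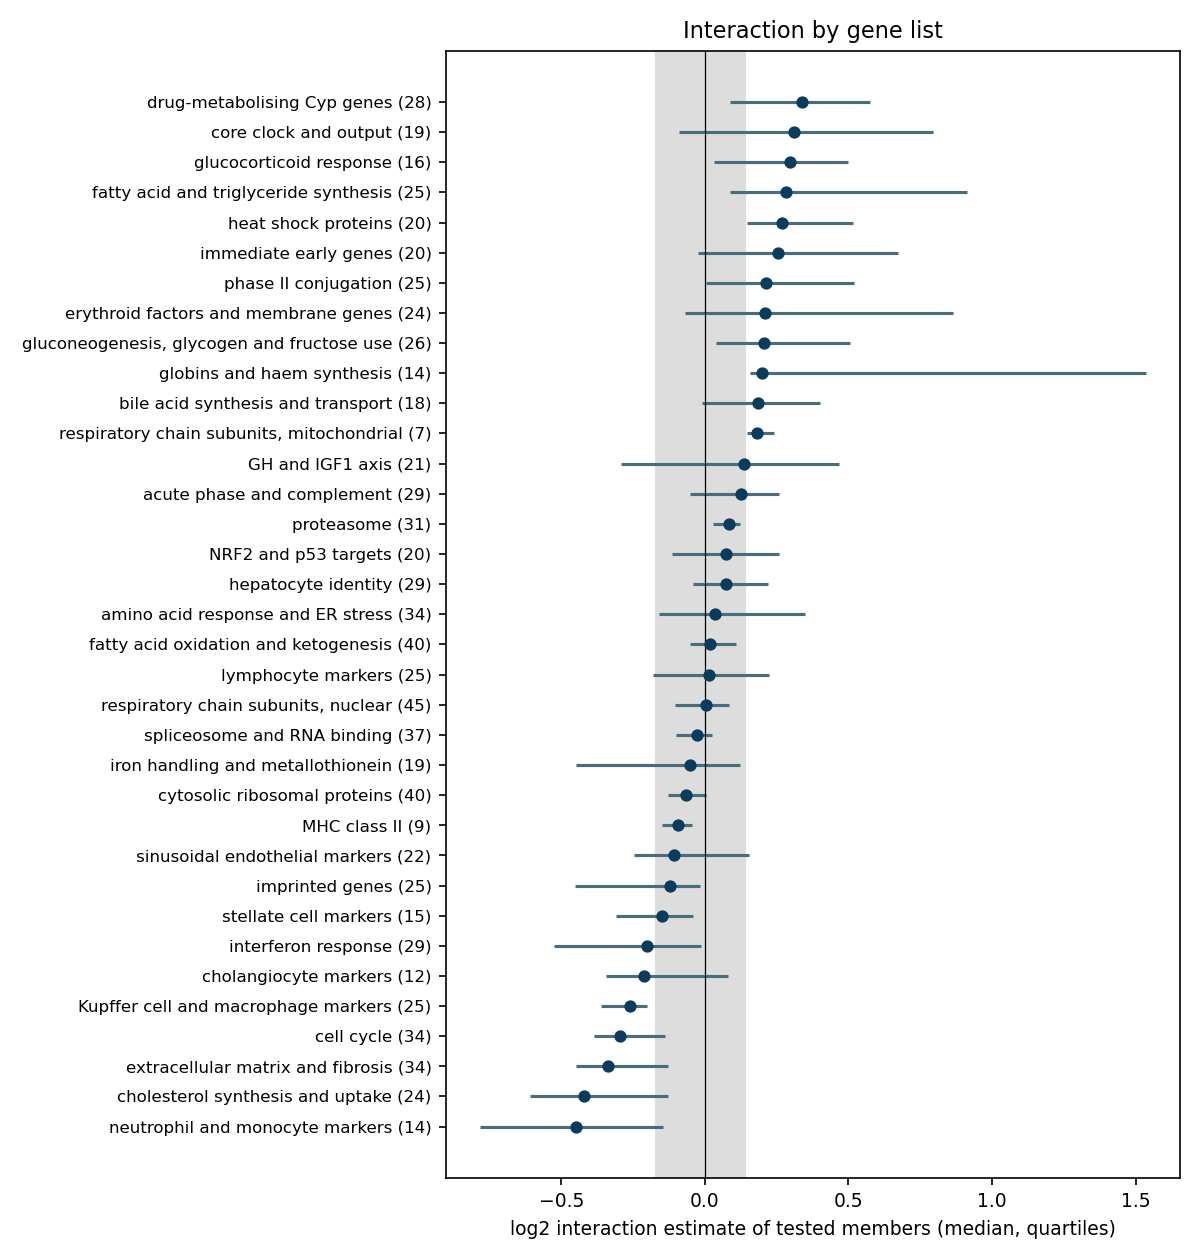
Median (points) and quartiles (lines) of the log2 interaction estimate over the tested members of 35 gene lists, with the number tested in parentheses; the grey band spans the quartiles of all tested genes, −0.17 to 0.14. The list of markers of other tissues is left out, as its highest member lies at 12.20. Medians run from −0.45 for neutrophil and monocyte markers to 0.34 for drug-metabolising P450 genes, and no list has a gene that passed in edgeR.

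Among lists of hepatocyte metabolism, carbohydrate genes leaned upward. Of 26 tested genes of gluconeogenesis, glycogen and fructose use, 21 were above 0, with a median of 0.21 (0.13 without Ct-MetS_63). At an unadjusted p under 0.05, 4 were above 0, Slc2a2, Khk and Ugp2 among them, and 1 below, Ldha. In each direction, 2.72% of all tested genes were at that level. Nursing by a MetS dam lowered Khk, ketohexokinase of fructose breakdown, in Ct-born pups by −1.28 ± 0.23 (edgeR adjusted p = 0.0187), against −0.60 ± 0.23 in MetS-born pups. It averaged 764 ± 151 CPM in Ct-Ct, 315 ± 124 in Ct-MetS, 573 ± 189 in MetS-Ct and 379 ± 29.4 in MetS-MetS, and its interaction estimate was 0.68 ± 0.32.

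Tkfc, which phosphorylates the triose formed from fructose, gave nursing effects of −1.30 ± 0.25 (edgeR adjusted p = 0.0187) and −0.45 ± 0.26, with an interaction of 0.85 ± 0.36. It belongs to the list of fatty acid and triglyceride synthesis, where 20 of 25 tested genes were above 0. The median of this list was 0.28 (0.14 without Ct-Ct_139, 0.64 without MetS-Ct_149). At an unadjusted p under 0.05 were 2 of the 25, Tkfc and Dgat2 (0.64 ± 0.21), both above 0. Of all tested genes, 2.72% were at that level in that direction. Fasn, fatty acid synthase, and Scd1, the stearoyl-CoA desaturase, had estimates of 0.95 ± 0.89 and 0.34 ± 0.92. Their intervals were wide (−0.91 to 2.81 and −1.57 to 2.25), and Fasn averaged 1580.0 ± 1483 CPM in Ct-Ct. Fatty acid oxidation and ketogenesis had a median of 0.02 over 40 genes, none at an unadjusted p under 0.05, and the median was below 0 in 12 of 34 alternatives.

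Bile acid genes and stress genes added a few members. In the list of bile acid synthesis and transport, 13 of 18 were above 0, with a median of 0.18 (0.11 without Ct-MetS_169). Slco1b2, a hepatic uptake transporter, had an interaction estimate of 0.68 ± 0.27. It was at 1330.0 to 1892 CPM in MetS-MetS against 1022 to 1297 in MetS-Ct, without overlap, as for 1.04% of all tested genes. Ct-Ct ran from 890.1 to 1998 CPM and Ct-MetS from 712.4 to 1467, so these groups overlapped each other and MetS-MetS. Cyp7b1 (0.85 ± 0.35), an oxysterol hydroxylase, and the export pump Abcc2 (0.44 ± 0.19) also had estimates above 0. At an unadjusted p under 0.05, 4 of the 18 were above 0 and 1 was below (2.72% of all tested genes in each direction). Of 20 heat shock genes, 19 were above 0, with a median of 0.27. The co-chaperone gene Dnaja1 averaged 156.8 ± 19.1 CPM in MetS-MetS and 106 to 115 in the other groups, with an estimate of 0.52 ± 0.18. The amino acid response and endoplasmic reticulum list was divided, with 18 of 34 above 0 and a median of 0.04 (−0.07 with library totals). Its members included Atf4 at 0.35 ± 0.14, Dnajb9 at 0.89 ± 0.36 and Gars at 0.25 ± 0.11, and Sdf2l1 at −1.13 ± 0.40.

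Imprinted genes, whose expression depends on the parent of origin, had 6 of 25 tested members above 0 and 19 below, with a median of −0.12 (−0.24 without MetS-MetS_110). H19, an imprinted non-coding RNA abundant in fetal liver, was the single member at an unadjusted p under 0.05, and its estimate of −2.64 ± 0.94 did not pass in edgeR (adjusted p = 0.892). H19 was at 59.2 to 780.1 CPM in Ct-Ct (median 156), 378 to 4551 in Ct-MetS (median 645), 158 to 853 in MetS-Ct (median 408) and 246 to 726 in MetS-MetS (median 287). Ct-MetS_169 held the highest H19 value, and without it the estimate was −1.77. Igf2, the growth factor gene next to H19, had an estimate of −0.92 ± 0.87, which was −0.05 without Ct-MetS_169. Plagl1, a zinc finger regulator of the imprinted network, averaged 7.43 ± 2.57 CPM in Ct-Ct, 9.70 ± 2.25 in Ct-MetS, 7.74 ± 1.78 in MetS-Ct and 8.29 ± 2.07 in MetS-MetS, and its estimate was −0.29 ± 0.30.

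The largest estimates of all came from skeletal muscle genes and rested on MetS-MetS_110. Myh8, Myh1, Acta1 and Atp2a1, which encode myosin heavy chains, skeletal actin and the calcium pump of muscle, had estimates of 14.97, 13.04, 12.20 and 8.42. In MetS-MetS_110 they were at 205, 272, 358 and 110.5 CPM. The highest value in any other library was that of Ct-Ct_10, from 1.19 CPM for Atp2a1 to 2.31 for Acta1. Without MetS-MetS_110 all 4 fell below the count minimum and were not tested. In this library the defining markers of muscle were thus present, and their part in the other values of MetS-MetS_110 was not tested.

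Il1rn, which encodes the interleukin 1 receptor antagonist, had higher mean levels after nursing by a MetS dam in pups of both birth dams. It was not among the genes called in both nursing comparisons, and its interaction did not pass. It averaged 2.34 ± 1.28 CPM in Ct-Ct and 9.39 ± 5.74 in Ct-MetS, and 2.91 ± 1.51 in MetS-Ct and 9.47 ± 2.20 in MetS-MetS. The ranges of Ct-Ct and Ct-MetS overlapped (1.04 to 4.74 and 2.80 to 19.1 CPM). The interaction estimate was −0.31 ± 0.57, with a 95% interval from −1.49 to 0.87, and was 0.014 without Ct-MetS_169.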

How the data were processed

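Polyadenylated liver RNA was sequenced with 1 library per animal. The authors deposited a table of whole-number counts per gene. The submitters' processing notes name STAR, HTSeq, FastQC and DESeq2. Their versions, the genome build and whether counting used the strand were not given in the sources used here. Although the table is named as normalised, its values were read as raw counts, since DESeq2 size factors on them ranged from 0.623 to 1.43, where scaled values would give factors close together. Symbols matched 49326 of 49585 gene identifiers, and the 259 others held 0.0137% of the counts.

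Groups came from the labelled treatment. Genes with a mean count of at least 10 were fitted with edgeR 4.0.16 (R 4.3.3), TMM factors, robust quasi-likelihood estimation and 1 mean per group. The contrast was (MetS-MetS minus MetS-Ct) minus (Ct-MetS minus Ct-Ct), with Benjamini-Hochberg adjustment over all 14466 genes and calls at an adjusted p under 0.05. An estimate is in log2 units. SEs were derived from the estimate and the F statistic, and the ratio of matched to mismatched pups comes from the mean log2 levels of the 4 groups. CPM uses effective library sizes. Shares of the sum of squares used log2 CPM with a prior count of 1. DESeq2 1.42.0 and limma-voom (limma 3.58.1) were alternatives, as were other scalings, filters and depths and leaving out each library. Scripts were tested on simulated counts.

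Named genes are, in each direction, the 12 with the smallest p and the 4 with the largest estimate at an unadjusted p under 0.01 (mean count of at least 50), up to 4 members of each list by smallest p, and Plagl1, H19, Igf2, Hba-a1, Hbb-bs, Alas2, Scd1, Fasn, Ucp2 and Il1rn. Predicted genes and pseudogenes were left out of this rule, and 2 genes that it or the lists hold are not reported here. List members at an unadjusted p under 0.05 beyond these, the 12 genes called in both nursing comparisons and Krt13 were named after their values were seen. The 36 lists, the comparison and its tests were chosen with earlier results of these data known.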

Additional observations from a re-analysis of the deposited data

Results flagged for a closer look

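For each named gene and group, the highest or lowest library was compared with its nearest neighbour by Dixon's ratio. A library stood apart in 27 of 272 groups, where chance gives about 1 in 20. Flags cluster in a few libraries and genes, and none was used to leave out a library from the values above.

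The 4 skeletal muscle genes account for 12 of the 27. With these genes set aside, the flags are near the rate that chance gives, so nothing was read from a single flag. In MetS-MetS_110 the levels were 205 CPM for Myh8, 272 for Myh1, 358 for Acta1 and 110.5 for Atp2a1, and the heat shock gene Hspb1, which muscle also expresses, was at 8.47 CPM. In Ct-Ct_10 the same muscle genes were at 1.61, 1.997, 2.31 and 1.19 CPM. In Ct-MetS_24 Myh1 was at 1.07, Acta1 at 1.499 and Atp2a1 at 0.75 CPM. In MetS-Ct_149 Myh1 was flagged at 0.0376 CPM, a value at the floor, as the nearest other library was at 0.

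In Ct-MetS_169 the erythroid gene Trim10 (0.29 CPM) was low and the growth factor gene Igf2 (53.02 CPM) was high. In MetS-MetS_157 Trim10 was high at 2.30 CPM, as was H19 at 726 CPM. Igf2 was also high in Ct-Ct_130, at 26.6 CPM, where Atf4 was at 99.8 CPM. In MetS-MetS_39 Osbpl8 (41.7 CPM) and the glucose transporter gene Slc2a2 (248.7 CPM) were low. MetS-Ct_97, the pup labelled day 22, was low in Stat2 (85.7 CPM) and Tkfc (236 CPM). Single flags were Slco1b2 at 1998 CPM in Ct-Ct_33, Id3 at 25.1 CPM in Ct-Ct_4, Oasl1 at 4.81 CPM in Ct-Ct_129 and Fmnl3 at 7.38 CPM in MetS-Ct_120.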

How the results depend on the processing

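The interaction count was 0 in edgeR and limma-voom under all 34 alternatives other than DESeq2's Wald test, which called 4 genes, 4 of them higher in matched pups. In DESeq2 the count ran from 1 (without MetS-MetS_110) to 16 (without MetS-MetS_39) over single libraries left out, and was 0 without MetS-MetS_110 and Ct-Ct_10, an alternative chosen after seeing the data. The nursing count in Ct-born pups, 138, was 425 with DESeq2, 533 with limma-voom with sample quality weights and 35 without those 2 libraries, and 12 (without Ct-MetS_169) to 246 (without Ct-Ct_33) with single libraries left out. The nursing count in MetS-born pups, 60, was 136 with DESeq2, 16 with limma-voom, 255 with quality weights, 20 with no filter, 30 with a mean count of at least 50, 32 after thinning to the smallest total and 11 without those 2 libraries. It ran from 5 (without MetS-Ct_70) to 151 (without MetS-MetS_39) with single libraries left out. Il1rn had an interaction estimate between −0.63 and 0.014 with single libraries left out and was reversed without Ct-MetS_169. The cause of these shifts was not tested. No other of the 68 genes recomputed under the alternatives changed sign, among 2437 estimates that include the globin nursing estimates in MetS-born pups. Genes named after their values were seen were not among the 68. The globin calls in MetS-born pups were lost in 58 of the recomputed estimates of 4 genes. By gene, they were lost in 22 of 34 alternatives for Hba-a1, 21 for Hbb-bs, 8 for Hba-a2 and 7 for Hbb-bt. The 1224 recomputed list medians moved by more than the spread between replicates in 4. No paired analysis was possible because animal numbers are not shared between groups. Thinning to the smallest total left the interaction count at 0 and gave 128 genes in Ct-born pups. Genes with a mean count under 10 were not tested.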

Other observations

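The remaining lists gave smaller or less even values. Genes of the circadian clock and its output had a median interaction of 0.31, with 13 of 19 tested members above 0 and none at an unadjusted p under 0.05. Leaving out 1 library moved this median to between 0.18 (without Ct-Ct_130) and 0.61 (without MetS-MetS_39). The hour of tissue collection was not used here. The glucocorticoid response list had a median of 0.30 with 13 of 16 above 0, and Klf9, a target of the glucocorticoid receptor, was its single member at an unadjusted p under 0.05. Its median was 0.04 without MetS-MetS_39 and 0.45 without Ct-MetS_65. Enzymes of phase II conjugation, which attach glucuronide, sulphate or glutathione to foreign compounds, had a median of 0.21 (0.10 without Ct-Ct_33) with 19 of 25 above 0, and 3 related glucuronosyltransferase genes (Ugt2b36, Ugt2b35 and Ugt2b5) were at that level, where 2.72% of all tested genes were above 0. Reads could be divided between these 3.

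Among markers of the other liver cell types, 14 of 22 sinusoidal endothelial genes were below 0 with a median of −0.11 (−0.04 without MetS-Ct_53 and −0.21 without MetS-MetS_157), whereas Clec4g and Bmp2 were above 0 at an unadjusted p under 0.05. Of 12 tested cholangiocyte genes, 7 were below 0, among them the keratin gene Krt8 (−0.57 ± 0.24 SE) and the transcription factor gene Sox9 (−1.05 ± 0.46). Lymphocyte markers had a median of 0.02 over 25 genes, and its sign changed in 16 of 34 alternatives. Cytosolic ribosomal protein genes (median −0.07 over 40), nuclear genes of the respiratory chain (0.00 over 45) and proteasome genes (0.08 over 31) stayed inside the quartiles of all tested genes.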
